A study of Mus musculus with 6 samples.

Results

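Mast cells and basophils are granule-bearing cells of the myeloid branch of blood. The 8 genes described here, Mcpt8, Prss34, Cpa3, Gzmb, Prg2, Hdc, Fcer1a and Ms4a2, were chosen by symbol as genes of these cells, and all 8 were found among the 50763 symbols of the deposited table. All 8 also passed the filter on low counts, which left 19313 genes for testing. RNA came from CD34- KSL cells of mouse bone marrow, which are lineage-negative cells that carry c-Kit and Sca-1 without CD34 and are rich in long-term haematopoietic stem cells. All mice carried both Tal1-tTA, whose activator is blocked by doxycycline and is placed under Tal1, a gene of blood stem cells, and TRE-EGFR-tr, the transgene that this activator turns on. In the EGFR-DN group (n = 3), given no doxycycline, a form of EGFR with its cytoplasmic tyrosine kinase part deleted was by design made in addition to wild-type EGFR. The EGFR-WT group (n = 3) had doxycycline in its drinking water at 0.2 g/L and by design made wild-type EGFR alone. Doxycycline and the truncated receptor therefore cannot be told apart in this design. Age, sex, strain background and the number of mice behind each library are not stated in the labels.

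Both cell types bind IgE through a surface receptor built from an alpha chain (Fcer1a), a beta chain (Ms4a2) and a shared gamma chain (Fcer1g), and release granules when that receptor is cross-linked. The granules hold proteases, such as the basophil proteases encoded by Mcpt8 and Prss34 and the carboxypeptidase encoded by Cpa3, together with histamine, which is made by the enzyme encoded by Hdc. In bone marrow the lineage is marked by interleukin 3 responsiveness and by GATA factors, and several of its genes, Cpa3 and Hdc among them, are known to be transcribed already in immature progenitors.

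The libraries held 24073204 to 36032504 counts. CPM below means counts per 10⁶ counts of tested genes after TMM scaling (trimmed mean of M-values), so that 3 counts equal 0.0800 to 0.152 CPM depending on the library. Egfr, the check of the labels, was counted 4022, 4758 and 991 times in EGFR-DN replicates 1, 2 and 3 and 6 times in every EGFR-WT library. Those 6 counts equal 0.160 to 0.237 CPM, so wild-type Egfr transcript was near the limit of measurement in EGFR-WT. EGFR-DN replicate 3 stood apart, with 25.4% of its counts on 8 rRNA-like genes against 4.71% to 6.15% in the other 5 libraries, so values are also given without it. Of the markers used in the sort, Kit (c-Kit) was at 736 to 1962 CPM and Ly6a (Sca-1) at 46.7 to 78.4 CPM. Cd34 transcript, whose protein is absent from the sorted surface, was at 569, 534 and 378 CPM in EGFR-DN and 318, 410 and 404 CPM in EGFR-WT. Without EGFR-DN replicate 3 its adjusted p was 0.118 by edgeR and 0.000126 by DESeq2, which then called 5.27% of all genes. Of 8 genes listed for the sorted cells, only Procr had groups that did not overlap. It was lower in EGFR-DN, as were 8.72% of all genes tested. Of 13 genes listed for mature mast cells, Mcpt1, Mcpt2, Mcpt4, Mcpt9, Tpsab1 and Mrgprb2 had 0 counts in all 6 libraries, and 10 never reached 1 CPM. The other 3 were Kit, Il1rl1 and Slc18a2. No mast cell chymase or tryptase transcript of this list was measured at more than 0.394 CPM.

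The deposited table gives no coordinates, so the DNA before each start site was read by symbol from the RefSeq promoter table of build GRCm38.p6, which held 7 of the 8 genes. The 4 shown are those whose levels the results turn on, the basophil protease genes Mcpt8 and Prss34 together with Cpa3 and Hdc. Each is the 250 bases before the start site, 5′ to 3′, with capitals marking a GATA motif (the letters AGATAA or AGATAG, and the letters TGATAA or TGATAG, on either strand). The windows are chr14:56085198-56085447 for Mcpt8, chr3:20242182-20242431 for Cpa3 and chr2:126618679-126618928 for Hdc, all on the reverse strand, and chr17:25298144-25298393 for Prss34 on the forward strand.
Mcpt8: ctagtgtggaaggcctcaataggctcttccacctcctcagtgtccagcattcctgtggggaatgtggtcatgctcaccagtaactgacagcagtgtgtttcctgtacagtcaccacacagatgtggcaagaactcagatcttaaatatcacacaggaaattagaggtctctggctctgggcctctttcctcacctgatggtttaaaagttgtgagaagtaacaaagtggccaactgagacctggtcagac
Prss34: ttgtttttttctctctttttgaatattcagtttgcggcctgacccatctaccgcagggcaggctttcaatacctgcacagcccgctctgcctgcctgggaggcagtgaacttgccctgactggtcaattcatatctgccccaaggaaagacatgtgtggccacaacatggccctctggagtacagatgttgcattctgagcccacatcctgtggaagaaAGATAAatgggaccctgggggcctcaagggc
Cpa3: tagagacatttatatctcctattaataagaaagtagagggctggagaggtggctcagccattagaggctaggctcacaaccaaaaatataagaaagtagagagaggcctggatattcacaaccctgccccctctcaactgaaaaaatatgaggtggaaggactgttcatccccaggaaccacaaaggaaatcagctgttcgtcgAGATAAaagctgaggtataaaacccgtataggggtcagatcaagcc
Hdc: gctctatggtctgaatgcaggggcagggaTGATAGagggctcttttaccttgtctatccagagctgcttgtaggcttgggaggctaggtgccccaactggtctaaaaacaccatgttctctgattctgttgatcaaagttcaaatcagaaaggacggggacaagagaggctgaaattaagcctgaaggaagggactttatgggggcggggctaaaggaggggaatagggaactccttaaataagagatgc
A GATA motif lay 46 bases before the start of Cpa3, 31 before that of Prss34 and 221 before that of Hdc, and Mcpt8 had none in its window. Of the 7 promoters found, 5 held at least 1, those of Ms4a2 (3 motifs) and Fcer1a (1) included, against 26.5% of all 32851 windows of this length in the table. The palindrome TTCNNNGAA, bound by STAT5 downstream of interleukin 3, was in 0 of the 7 and in 7.02% of all windows. These matches are descriptions of sequence and are not evidence of binding.

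The comparison asks how the genes differ when the truncated receptor is made. Mcpt8 was lower in all 3 EGFR-DN libraries, Cpa3 and Hdc were higher in all 3, and the other 5 genes overlapped between the groups. None of the 8 passed the threshold of 0.05 in edgeR's quasi-likelihood test adjusted over all genes, under which 1 gene of 19313, Egfr, was called (0.00518% of those tested). Of the 8 genes, 3 had an unadjusted p under 0.05, against 6.69% of all genes tested, and the same 3 were the ones whose groups did not overlap, against 17.9% of all genes (9.18% higher and 8.72% lower in EGFR-DN). Without EGFR-DN replicate 3, the groups did not overlap for 5 of the 8, Prss34 and Ms4a2 added, against 32.2% of all genes. Such counts can only stay or rise when a library is left out. The median log2 fold change, EGFR-DN minus EGFR-WT, was −0.43 over the 8 genes and 0.0099 over all genes tested, with 3 of the 8 above 0. In RNA of a bulk sort, fewer cells of a type and less RNA per cell cannot be told apart.

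**Figure D1:**
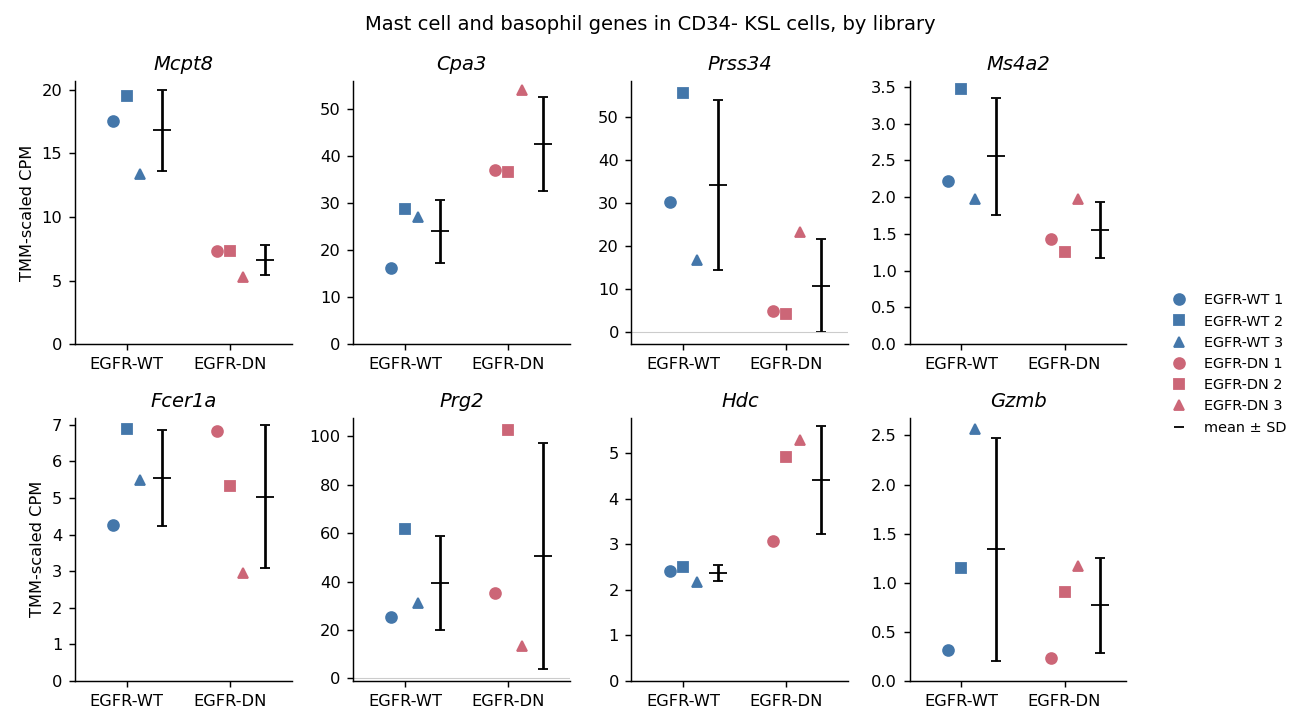
TMM-scaled CPM (vertical axes, each from about 0) of the 8 genes in each of the 6 libraries, with the mean ± SD of each group in black. Mcpt8 is lower, and Cpa3 and Hdc higher, in all 3 EGFR-DN libraries, while EGFR-DN replicate 3 (red triangle) lies above the other EGFR-DN libraries for Prss34.

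Mcpt8 encodes mouse mast cell protease 8, a serine protease of basophil granules. It was at 7.29, 7.29 and 5.27 CPM in EGFR-DN replicates 1 to 3, on 250, 257 and 104 counts, and at 17.6, 19.5 and 13.3 CPM in EGFR-WT replicates 1 to 3, on 553, 731 and 338 counts. Every EGFR-DN library lay below every EGFR-WT library. The means were 6.62 ± 1.16 and 16.8 ± 3.15 CPM (SD, n = 3 each), a 2.54-fold lower level in EGFR-DN, and the log2 fold change was −1.34 (SE 0.23, edgeR unadjusted p = 0.000588, adjusted p = 0.590). With the Wald test of DESeq2 the gene passed, at −1.35 on the log2 scale (SE 0.27, adjusted p = 0.000932), where 0.505% of genes were called, 0.140% as lower. Without EGFR-DN replicate 3 the log2 fold change was −1.21 (SE 0.18), with adjusted p = 0.0597 by edgeR and 3.25e-07 by DESeq2. Over all 16 alternatives the log2 fold change stayed between −1.49 and −1.21, and the adjusted p between 3.25e-07 and 0.912.

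Prss34, the gene of a second basophil serine protease, of the tryptase family, had the fold change farthest from 0 of the 8. It was at 4.99 and 4.08 CPM in EGFR-DN replicates 1 and 2 and at 23.3 CPM in replicate 3. In EGFR-WT replicates 1 to 3 it was at 30.4, 55.7 and 16.7 CPM. Only the rRNA-rich EGFR-DN replicate 3 reached into the EGFR-WT range, where it exceeded EGFR-WT replicate 3. The means were 10.8 ± 10.9 and 34.3 ± 19.8 CPM (SD, n = 3 each; log2 fold change −1.68, SE 0.75, edgeR adjusted p = 0.690). Without EGFR-DN replicate 3 it was −2.93 (SE 0.49), with adjusted p = 0.0708 by edgeR, where 0.286% of genes were called, and adjusted p = 0.000280 by DESeq2, where 5.27% were called (2.31% as lower). Without EGFR-DN replicate 1 or 2, or EGFR-WT replicate 2, the log2 fold change was −1.34, −1.31 and −1.14.

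**Figure D2:**
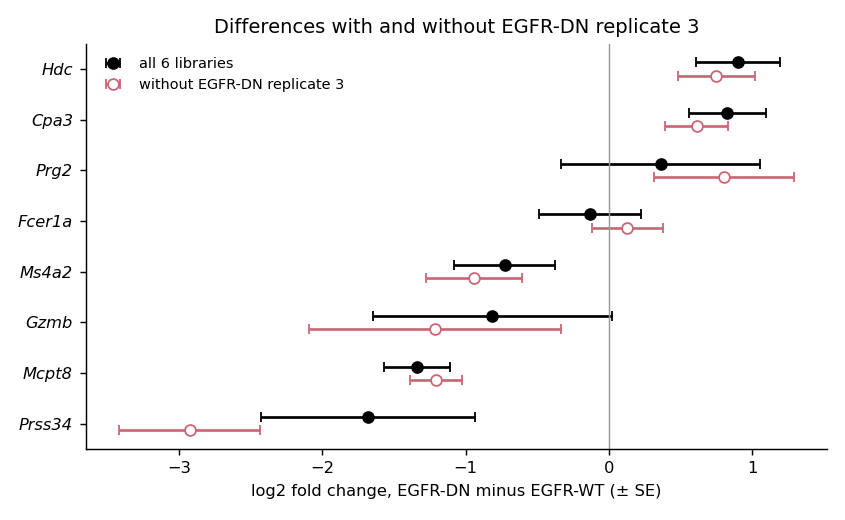
Log2 fold change (EGFR-DN minus EGFR-WT, horizontal axis, bars ± SE, edgeR) of the 8 genes with all 6 libraries (filled) and without EGFR-DN replicate 3 (open). Prss34 moves from −1.68 to −2.93, and Fcer1a changes sign from −0.13 to 0.13, without that library.

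Cpa3 encodes carboxypeptidase A3, a granule exopeptidase of mast cells and basophils. It was at 36.95, 36.6 and 54.1 CPM in EGFR-DN replicates 1 to 3, on 1267, 1291 and 1067 counts, and at 16.3, 28.7 and 27.1 CPM in EGFR-WT replicates 1 to 3. The groups did not overlap, and EGFR-DN replicate 3 was the highest library. The means were 42.6 ± 9.997 and 24.0 ± 6.74 CPM (SD, n = 3 each), a 1.77-fold higher level in EGFR-DN (log2 fold change 0.82, SE 0.27, edgeR unadjusted p = 0.0174, adjusted p = 0.690). Without EGFR-DN replicate 3 the log2 fold change was 0.61 (SE 0.22, adjusted p = 0.292) and the groups still did not overlap. DESeq2 did not call the gene with or without that library (adjusted p = 0.352 with it and 0.0666 without it).

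Hdc encodes histidine decarboxylase, the enzyme that makes histamine. It was at 3.06, 4.91 and 5.27 CPM in EGFR-DN replicates 1 to 3 (105, 173 and 104 counts) and at 2.41, 2.50 and 2.17 CPM in EGFR-WT replicates 1 to 3 (76, 94 and 55 counts). All EGFR-DN libraries were above all EGFR-WT libraries, whose own spread was narrow. The means were 4.42 ± 1.19 and 2.36 ± 0.174 CPM (SD, n = 3 each), 1.87-fold higher in EGFR-DN, and the log2 fold change was 0.90 (SE 0.29, edgeR unadjusted p = 0.0177, adjusted p = 0.690). Without EGFR-DN replicate 3 it was 0.75 (SE 0.27, adjusted p = 0.298).

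The fold changes thus had opposite signs, and the balance between them can be read within a library, where scaling between libraries plays no part. This reading was chosen after the values were seen and is a description. Mcpt8 had 0.197, 0.199 and 0.0975 counts for each Cpa3 count in EGFR-DN replicates 1 to 3 and 1.08, 0.679 and 0.492 in EGFR-WT replicates 1 to 3. For each Hdc count, Mcpt8 had 2.38, 1.49 and 1.00 counts in EGFR-DN and 7.28, 7.78 and 6.15 in EGFR-WT. Prss34 per Cpa3 count was 0.135, 0.112 and 0.431 in EGFR-DN against 1.86, 1.94 and 0.616 in EGFR-WT. In all 3 ratios every EGFR-DN library was below every EGFR-WT library. For Mcpt8 over Cpa3 and Mcpt8 over Hdc this follows from the separate genes and adds no support. Mcpt8 was lower, and Cpa3 and Hdc higher, in all 3 EGFR-DN libraries. Only Prss34 over Cpa3 could have come out otherwise. The ratio of Prss34 to Mcpt8, both basophil protease genes, did overlap, at 0.684, 0.560 and 4.42 in EGFR-DN and 1.73, 2.86 and 1.25 in EGFR-WT, with EGFR-DN replicate 3 the highest of all.

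**Figure D3:**
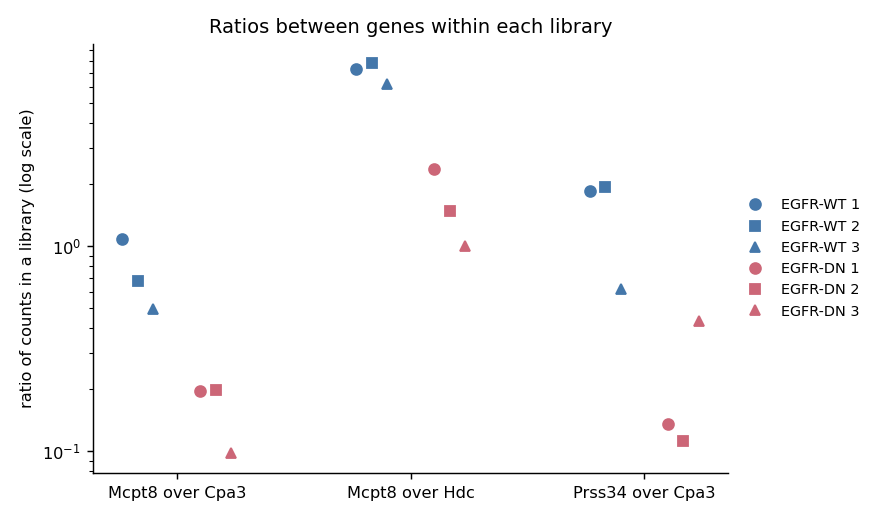
Ratio of the counts of 2 genes within each library (vertical axis, log scale) for Mcpt8 over Cpa3, Mcpt8 over Hdc and Prss34 over Cpa3, with EGFR-WT in blue and EGFR-DN in red. Mcpt8 over Hdc is 6.15 or more in the EGFR-WT libraries and 2.38 or less in the EGFR-DN libraries.

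The IgE receptor genes overlapped between the groups. Ms4a2, the beta chain that amplifies the signal, was at 1.43, 1.25 and 1.98 CPM in EGFR-DN and 2.22, 3.46 and 1.97 CPM in EGFR-WT replicates 1 to 3, on 39 to 130 counts a library. The groups met only where EGFR-DN replicate 3 lay level with EGFR-WT replicate 3. The log2 fold change was −0.73 (SE 0.35, edgeR adjusted p = 0.690), and −0.94 (SE 0.34, adjusted p = 0.293) without EGFR-DN replicate 3. Fcer1a, the alpha chain that binds IgE, was at 6.83, 5.33 and 2.94 CPM in EGFR-DN and 4.26, 6.88 and 5.48 CPM in EGFR-WT. Its groups overlapped, with the lowest value in the rRNA-rich EGFR-DN replicate 3, and its log2 fold change was −0.13 (SE 0.36, edgeR adjusted p = 0.878). That sign turned to 0.13 (SE 0.25, adjusted p = 0.875) without replicate 3.

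Prg2 encodes major basic protein, which is best known from eosinophil granules and is also found in basophils. It was at 35.4, 102.8 and 13.3 CPM in EGFR-DN replicates 1 to 3 and at 25.2, 61.8 and 31.3 CPM in EGFR-WT replicates 1 to 3. Both the highest and the lowest library were EGFR-DN, so the groups overlapped fully (log2 fold change 0.36, SE 0.70, edgeR adjusted p = 0.832), and without EGFR-DN replicate 2 the sign turned (−0.70). Eosinophil genes were measured beside it. Epx, the eosinophil peroxidase, was at 7.29, 13.2 and 4.77 CPM in EGFR-DN and 4.10, 4.02 and 0.355 CPM in EGFR-WT (log2 fold change 1.57, SE 0.79, edgeR adjusted p = 0.690). The paralogue Prg3 was at 1.40, 2.64 and 0.152 CPM against 0.921, 1.41 and 0.118 CPM. The eosinophil ribonuclease genes Ear1, Ear2 and Ear6 reached 2.50, 2.21 and 3.32 CPM at most. Ear1 and Ear2 have fractional counts, so reads may be split between them, while the counts of Ear6 are whole. EGFR-DN replicate 2 was the highest library for Prg2 and for each of these 5 genes. EGFR-DN replicate 3 and EGFR-WT replicate 3 were the lowest pair for Prg3, Ear1, Ear2 and Ear6, whereas Prg2 in EGFR-WT replicate 3 was above that in EGFR-DN replicate 3 and EGFR-WT replicate 1. Summed over 8 eosinophil markers, the level was 28.9, 35.6 and 17.6 CPM in EGFR-DN and 12.7, 15.2 and 8.48 CPM in EGFR-WT. Its part in the Prg2 values was not tested.

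**Figure D4:**
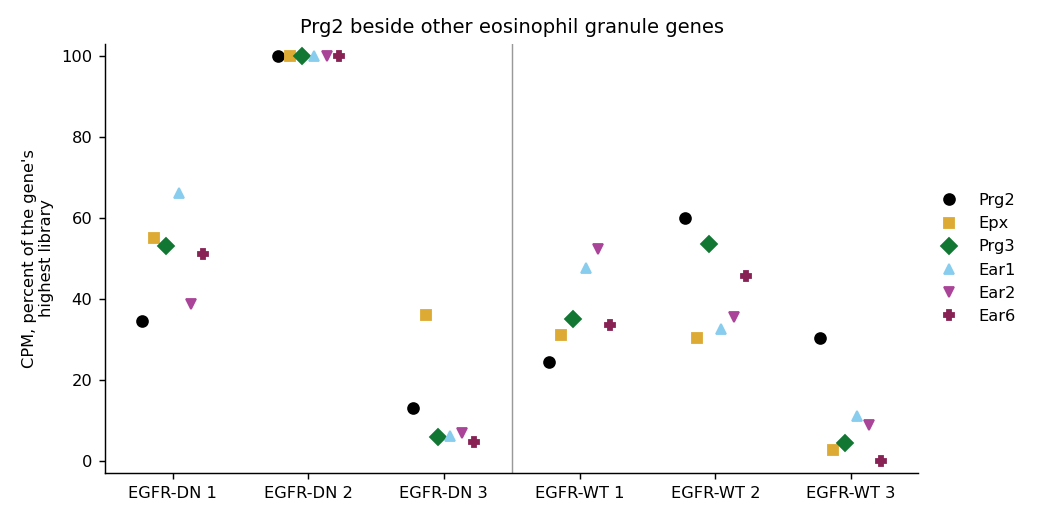
CPM of Prg2 and 5 eosinophil granule genes in each library, as a percentage of that gene's own highest library (vertical axis). All 6 genes are highest in EGFR-DN replicate 2, and Prg2 is at 30.4% of its highest level in EGFR-WT replicate 3, where Epx is at 2.69%.

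Gzmb encodes granzyme B, a serine protease of cytotoxic lymphocytes that mast cells can also make. It was near the limit of measurement, with 8, 32 and 23 counts in EGFR-DN and 10, 43 and 65 counts in EGFR-WT replicates 1 to 3, or 0.233, 0.908 and 1.17 against 0.318, 1.15 and 2.56 CPM. The groups overlapped (log2 fold change −0.81, SE 0.83, edgeR adjusted p = 0.736), and without EGFR-WT replicate 3 the log2 fold change was 0.038. Of 14 markers of cytotoxic cells, 7 stayed under 1 CPM in every library. Prf1, perforin, was at 0.254 to 1.22 CPM and Gzma, granzyme A, at 0.0507 to 1.49 CPM, while Cd3e, a T cell receptor subunit, did not exceed 0.254 CPM. Nkg7, a granule protein gene of cytotoxic cells, had the highest CPM of the list. It was at 226, 208 and 150 CPM in EGFR-DN and 98.9, 145 and 130 CPM in EGFR-WT (log2 fold change 0.64, SE 0.23, edgeR adjusted p = 0.690). Nkg7 was higher in all 3 EGFR-DN libraries, as were 9.18% of all genes tested. Klrb1c, a receptor gene of natural killer cells, was chosen after its values were seen. It was at 4.78, 8.14 and 6.54 CPM in EGFR-DN and 26.4, 9.99 and 12.5 CPM in EGFR-WT (log2 fold change −1.33, SE 0.40, edgeR adjusted p = 0.690). Klrb1c was lower in all 3 EGFR-DN libraries, as were 8.72% of all genes tested. Of the 9 markers tested, 5 lay above 0 and 4 below, with a median of 0.05. The part of cytotoxic cells in the Gzmb values was not tested.

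Levels of different genes were compared per kilobase of exon, with exon lengths from GENCODE M21 (GRCm38). In EGFR-WT the order of mean CPM per kilobase was Prg2 (47.1 ± 23.4), Prss34 (28.1 ± 16.2), Mcpt8 (20.1 ± 3.77), Cpa3 (16.6 ± 4.65), Fcer1a (5.55 ± 1.31), Hdc (0.988 ± 0.0727), Gzmb (0.935 ± 0.791) and Ms4a2 (0.908 ± 0.284; SD, n = 3). The ranges of neighbours overlapped at every step but 2, from Cpa3 (lowest 11.2) to Fcer1a (highest 6.89) and from Fcer1a (lowest 4.27) to Hdc (highest 1.05). In EGFR-DN the order was Prg2 (60.3 ± 55.7), Cpa3 (29.4 ± 6.90), Prss34 (8.85 ± 8.90), Mcpt8 (7.92 ± 1.39), Fcer1a (5.04 ± 1.96), Hdc (1.85 ± 0.496), Ms4a2 (0.552 ± 0.135) and Gzmb (0.536 ± 0.335). By these means Cpa3 stood below Mcpt8 and Prss34 in EGFR-WT, although in EGFR-WT replicate 3 it was above both, at 18.7 against 15.9 and 13.7. It stood above both in EGFR-DN, where its lowest library (25.3) was above the highest for Prss34 (19.1) and for Mcpt8 (8.72). The summed CPM of the 8 genes, not divided by length, did not separate the groups, at 96.2, 163 and 107 in EGFR-DN and 98.7, 180 and 101 in EGFR-WT.

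Cytokine receptors of the lineage were mostly above 0 in log2 fold change. Of 9 listed, 9 were tested, 8 lay above 0 and the median was 0.60, against 0.0099 over all genes. None passed the edgeR threshold. Csf2rb, Csf2rb2 and Il18rap had an unadjusted p under 0.05 by edgeR, against 6.69% of all genes tested. Csf2rb, the signalling beta subunit shared by the receptors for interleukin 3, interleukin 5 and GM-CSF, was at 46.2, 46.9 and 49.6 CPM in EGFR-DN and 16.5, 24.5 and 26.2 CPM in EGFR-WT (log2 fold change 1.09, SE 0.20, edgeR adjusted p = 0.642). Csf2rb2, the mouse beta subunit used by interleukin 3 alone, was at 13.3, 11.3 and 19.5 CPM against 4.45, 7.41 and 6.27 CPM (1.28, SE 0.29, edgeR adjusted p = 0.690). Every EGFR-DN library was above every EGFR-WT library for both, as for 9.18% of all genes tested. Both passed with DESeq2 (adjusted p = 0.00678 and 0.0303), which called 0.505% of all genes. Without EGFR-DN replicate 3 DESeq2 called 3 of the 9, Il18rap added, and 5.27% of all genes. Csf2rb and Csf2rb2 are close copies, so reads may be split between them. Il3ra, the alpha subunit that binds interleukin 3, overlapped, at 13.6, 10.6 and 10.7 against 7.09, 10.7 and 8.24 CPM (0.42, SE 0.22). Kit, the stem cell factor receptor that mast cells depend on, was at 736 and 806 CPM in EGFR-DN replicates 1 and 2 and 1962 CPM in replicate 3, against 771 to 806 CPM in EGFR-WT.

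Of 15 genes that signal from the IgE receptor, all were tested, 11 lay above 0, the median was 0.05 and none passed with all 6 libraries by edgeR or DESeq2. With EGFR-DN replicate 3 left out, edgeR called 1 of the 15, Lat2, where it called 0.286% of all genes. DESeq2 then called 2, Lat2 and Fcer1g, where it called 5.27% of all genes. Syk, the tyrosine kinase recruited to the receptor, was at 163, 148 and 364 CPM in EGFR-DN and 97.7, 137 and 130 CPM in EGFR-WT (log2 fold change 0.89, SE 0.37, edgeR adjusted p = 0.690). Its highest value lay in the rRNA-rich replicate 3, without which the log2 fold change was 0.36. Lat2, a membrane adaptor, was at 79.8, 77.3 and 44.9 CPM against 33.1, 40.9 and 46.3 CPM (0.75, SE 0.25, edgeR adjusted p = 0.690). It overlapped through replicate 3 alone, and without that library it passed the edgeR threshold (0.97, adjusted p = 0.0455). Fcer1g, the gamma chain, was at 36.7, 41.0 and 14.5 CPM against 22.0, 32.8 and 22.6 CPM (0.25, SE 0.38). Without replicate 3 it was at 0.58 (adjusted p = 0.220 by edgeR and 0.0304 by DESeq2), and the groups then did not overlap.

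Genes that pack granules or make mediators were split, with 4 of 11 tested above 0, a median of −0.20 and none past the threshold of edgeR or DESeq2 with all 6 libraries. Alox5, the 5-lipoxygenase of leukotriene synthesis, was at 10.96, 9.53 and 8.26 CPM in EGFR-DN and 4.60, 7.65 and 6.47 CPM in EGFR-WT (log2 fold change 0.62, SE 0.25, edgeR adjusted p = 0.690). Ptgs1, the constitutive cyclooxygenase, was at 55.3, 59.1 and 64.6 CPM against 91.6, 82.8 and 65.3 CPM (−0.42, SE 0.17, edgeR adjusted p = 0.690). The groups did not overlap for either gene, as for 17.9% of all genes tested. When EGFR-DN replicate 3 was left out, none of the 11 passed by edgeR. DESeq2 then called 1 of the 11, Ptgs1 (−0.48, adjusted p = 0.0159), and 5.27% of all genes. Il13 was at or below 1 count in every library.

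Among 14 transcription factors of the lineage 9 lay above 0, with a median of 0.21 and none past the threshold of edgeR or DESeq2 with all 6 libraries. Without EGFR-DN replicate 3 none passed by edgeR. DESeq2 then called 5 of the 14, Spi1 and Cebpa as higher in EGFR-DN and Gata2, Bhlhe40 and Tal1 as lower. In that setting DESeq2 called 5.27% of all genes, 2.31% as lower. Spi1, the myeloid factor PU.1, was at 78.8, 77.4 and 120 CPM in EGFR-DN and 51.4, 59.5 and 55.4 CPM in EGFR-WT (log2 fold change 0.73, SE 0.21, edgeR adjusted p = 0.690). Nfil3, a basic leucine zipper factor, was at 5.50 to 7.51 CPM against 3.68 to 4.22 CPM (0.77, SE 0.23, edgeR adjusted p = 0.690). Both were higher in 3 of 3 EGFR-DN libraries, as were 9.18% of all genes tested. Gata2, a factor that mast cells and basophils need, was at 174, 189 and 293 CPM against 288, 247 and 231 CPM (−0.22, SE 0.24, edgeR adjusted p = 0.744), with EGFR-DN replicate 3 the highest library. Without that library its log2 fold change was −0.50 (adjusted p = 0.111 by edgeR and 0.000196 by DESeq2). Gata1 was at 39.5, 36.4 and 61.1 against 26.1, 39.0 and 32.9 CPM (0.48, SE 0.25).

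**Figure D5:**
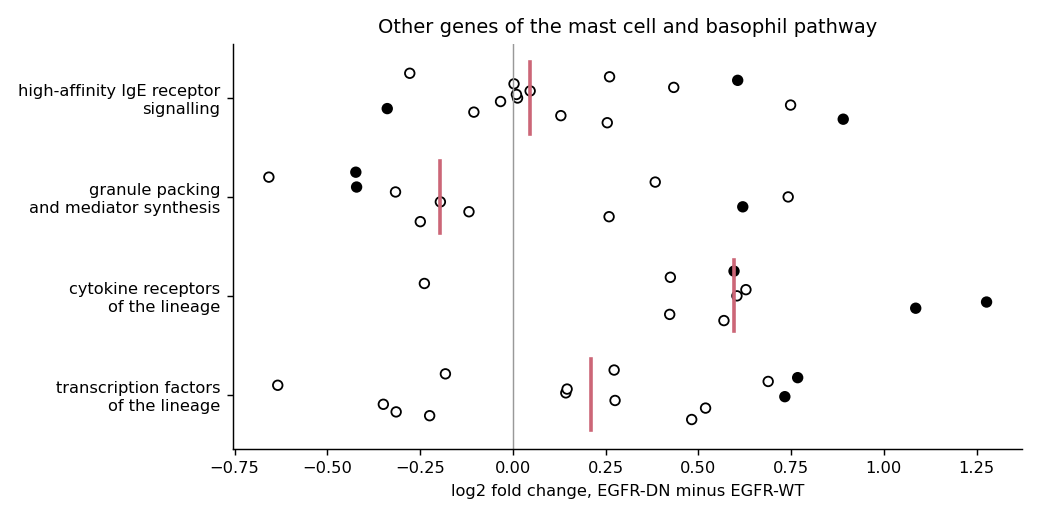
Log2 fold change (EGFR-DN minus EGFR-WT, horizontal axis) of the tested genes of 4 lists, 1 point a gene, spread vertically for legibility. Filled points are genes whose groups do not overlap, red bars are list medians, and the cytokine receptor list has the highest median, at 0.60.

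Markers of neighbouring lineages were measured in the same libraries. Summed over 10 neutrophil granule genes, led by the myeloperoxidase gene Mpo, the level was 913, 920 and 1443 CPM in EGFR-DN and 412, 597 and 461 CPM in EGFR-WT. Over 8 monocyte and dendritic cell genes, led by Irf8, it was 118, 94.1 and 61.4 against 32.0, 48.5 and 47.2 CPM. Over 7 B lineage genes, led by Cd79b, it was 49.7 to 67.5 against 36.3 to 46.1 CPM. These sums, like Cpa3 and Hdc, were higher in all 3 EGFR-DN libraries, as were 9.18% of single genes tested. Of the neutrophil sum, Mpo alone was at 653, 648 and 1261 CPM in EGFR-DN and 262, 430 and 328 CPM in EGFR-WT. All 9 neutrophil genes tested lay above 0 in log2 fold change, but the groups of only 2 did not overlap. In EGFR-DN replicate 3 Mpo and Elane were at their highest, and Ctsg, Prtn3 and Ltf at their lowest. Erythroid genes, led by Car1, summed to 314 to 558 against 221 to 356 CPM, and megakaryocyte genes, led by Itga2b, to 689 to 789 against 524 to 955 CPM, so these overlapped. Of 8 basophil surface genes, led by Il18rap, the sum was 123 to 140 CPM in EGFR-DN and 64.6 to 83.0 CPM in EGFR-WT. Only Csf2rb, Csf2rb2 and Il18rap of these 8 had groups that did not overlap, all higher in EGFR-DN, as were 9.18% of all genes tested. They are the cytokine receptor genes described above. The groups of the other basophil surface genes overlapped. Of the 7 basophil surface genes tested, 6 lay above 0 in log2 fold change, with a median of 0.42. Cd200r3, a basophil receptor outside the rule for named genes, was the 1 below 0 and was chosen after its values were seen. It was at 0.179, 0.340 and 0.710 CPM in EGFR-DN against 0.318, 1.31 and 0.986 CPM in EGFR-WT. Its log2 fold change was −1.14 (SE 0.70, edgeR adjusted p = 0.690). The part of any of these cell types in the values of the 8 genes was not tested.

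The genes most like each member were found by the root mean square difference of log2(CPM + 0.5), centred on each gene's own mean, over the 6 libraries and 10832 candidate genes of at least 4 CPM. Closest to Mcpt8 were Gng11 (difference 0.19), a G protein gamma subunit, and Aldh1a1 (0.19), a retinaldehyde dehydrogenase of stem cells, against a spread of 0.67 for Mcpt8 itself. Gng11 was at 47.0, 59.7 and 39.0 CPM in EGFR-DN and 124, 104 and 76.9 CPM in EGFR-WT. Closest to Cpa3 were Ttyh2 (0.10) and Dock10 (0.12), against its own 0.52, and closest to Hdc were Fmnl3 (0.17) and Rapgef3 (0.17), against 0.44. Fcer1a was closest to Rps23 (0.098), a ribosomal protein gene that was also lowest in the rRNA-rich replicate 3, at 28.3 CPM against 43.0 to 56.2 CPM in the other 5 libraries, and then to Gbp3 (0.11), against its own 0.38. Ms4a2 was closest to Sytl4 (0.14) and Serpina3g (0.15), against 0.38. Prss34 (nearest Gbp10 at 0.57 and Cyp26b1 at 0.77, own 1.30), Prg2 (Ffar2 at 0.45 and Gngt2 at 0.46, own 0.92) and Gzmb (Herpud1 at 0.44 and Pkd2l2 at 0.45, own 0.69) had no near match.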

How the data were processed

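Oligo(dT)-primed cDNA was made from sorted cells with a SMART-Seq v4 kit and sequenced after Nextera XT tagmentation, per the labels' protocols. Nextera XT does not mark strand. The deposited values are estimated counts by gene symbol, left unscaled by the authors, of which 79.4% are whole numbers. DRAGEN, DESeq2 1.40.2, R 4.3.1 and build mm39 are named, without roles, per the submitters' processing notes, and the annotation is not given in the sources used here. Counts were rounded. No row lacked a gene name (0 of the table), and 0 columns belonged to other samples. Library totals give the depth, and floors of 3 counts cover counting error only, since PCR copies are not independent molecules.

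EGFR-DN was compared with EGFR-WT over the whole table with filterByExpr, TMM and edgeR 4.0.16 in R 4.3.3 (quasi-likelihood, two-sided), with Benjamini-Hochberg adjustment. The SE is the size of the log2 fold change over the square root of F. The alternatives, 16 in all, used other scalings and filters, limma 3.58.1 (voom), DESeq2 1.42.0, a block and left-out libraries. The scripts were tested on simulated data. No pair of libraries was a duplicate (smallest chi-square per degree of freedom 16.2). Whether replicates were separate animals is not stated in the labels, so the p-values reflect spread among these libraries that may be technical.

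The 8 genes, the 15 lists of other genes and the naming rule were chosen with earlier results of these data known. The rule named the 8 genes, the 2 genes of smallest p in each pathway list, the most abundant gene of each marker list, Egfr and the 2 genes most like each member. Other genes in the text are named for their role in the pathway, with their values seen. Of all list entries 1 was not found by its symbol.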

Additional observations from a re-analysis of the deposited data

How the results depend on the processing

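EdgeR called 1 gene with all 6 libraries. The count was 0 with limma-voom, 108 with the Wald test of DESeq2, 857 with DESeq2 and EGFR-DN replicate 3 left out, and 0 to 57 when single libraries were left out, the highest without EGFR-DN replicate 3 and 0 without any 1 of the EGFR-WT libraries. Genes with an unadjusted p under 0.05 numbered 1293 by edgeR. Genes whose groups do not overlap rose in number from 3458 to 6221 without EGFR-DN replicate 3, an alternative chosen after seeing the data. Leaving out any library can only keep or raise this number, so the rise by itself says nothing particular about that library. The 6221 genes held 5 of the 8 genes, Prss34 and Ms4a2 added. With the replicate block 1 gene was called. The labels state no pairing of same-numbered libraries. The deviations of such libraries correlated at −0.023, 0.052 and 0.064 across genes, which cannot exclude pairing with so few libraries. Of 127 values of the 8 genes under alternatives, 119 kept their direction and side of the threshold, 3 passed it (Mcpt8 with DESeq2, and Mcpt8 and Prss34 with DESeq2 without EGFR-DN replicate 3) and 5 changed sign. Gzmb has no value under the filter of 50 counts, which it did not pass.

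For Fcer1a the log2 fold change was 0.13 with DESeq2 without EGFR-DN replicate 3, and −0.42 to 0.13 over left-out libraries. Left-out libraries gave −0.70 to 0.84 for Prg2, −1.30 to 0.038 for Gzmb, −0.034 to 0.81 for Kit, −0.20 to 0.37 for Itga2b, −0.13 to 0.29 for Cd79b and −0.014 to 0.58 for Fcer1g. They gave −0.32 to 0.093 for Rps23, −0.47 to 0.068 for Gbp3, −0.25 to 0.58 for Gngt2, −0.18 to 0.23 for Herpud1 and −0.035 to 0.48 for Pkd2l2. DESeq2 without EGFR-DN replicate 3 turned the sign of Kit (−0.032), Itga2b (0.22), Rps23 (0.095), Gbp3 (0.070) and Herpud1 (−0.013). The replicate block turned Itga2b (0.019) and Gngt2 (−0.059), limma-voom (0.011) and the filter of 50 counts (0.014) turned Itga2b, and library size alone (−0.090) and no filter (−0.014) turned Herpud1. The cause of these changes was not tested. With library size alone the median of all genes was −0.10, and Mcpt8, Cpa3 and Hdc kept their directions. Values under 2 CPM rest on few counts.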

Other observations

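Mcpt8 and Gzmb belong to a cluster of granzyme, chymase and cathepsin G genes on mouse chromosome 14. Of 12 other genes listed for that cluster, Gzme, Gzmf, Gzmg, Gzmn, Mcpt1, Mcpt2, Mcpt4 and Mcpt9 had 0 counts in all 6 libraries, and 11 stayed under 1 CPM throughout. The exception was Ctsg, cathepsin G of neutrophil and mast cell granules, at 122, 111.8 and 15.6 CPM in EGFR-DN replicates 1 to 3 and 34.7, 52.5 and 40.3 CPM in EGFR-WT. EGFR-DN replicate 3 was the lowest library of all for Ctsg, and the groups overlapped through it (log2 fold change 0.97, SE 0.65, edgeR adjusted p = 0.690). Without replicate 3 Ctsg passed the edgeR threshold as higher in EGFR-DN (1.46, adjusted p = 0.0388), while Mcpt8, in the same cluster, was at −1.21.

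Siglecf, an eosinophil surface lectin, had the highest mean CPM of the 8 eosinophil markers, not divided by length, at 14.0, 9.93 and 10.7 CPM in EGFR-DN and 3.88, 6.13 and 5.76 CPM in EGFR-WT. It did not share the library order of Prg2, since EGFR-DN replicate 1 was its highest library, and in EGFR-DN replicate 2 Epx was above it. Its log2 fold change was 1.14 (SE 0.26, edgeR adjusted p = 0.690; DESeq2 adjusted p = 0.0402).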
